A study of Mus musculus with 4 samples.

Results

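Genes without any intron were described in RNA of sorted mouse testis cells, which were mostly diplotene spermatocytes by the paper's count. These meiotic cells have paired their chromosomes and begun to separate them. A gene was taken as intronless when it was counted alone and not merged with an overlapping gene, had no intron among the deposited intron counts, and had gene counts summing to at least 100 over the 4 samples. Of 37718 genes or merged genes in the counts, 13140 were unmerged and had no intron, and 1024 of these reached the minimum count. The other genes comprised 23638 unmerged genes with introns and 940 merged ones. The summed counts of all 4 samples thus chose the members, and their levels below are descriptions, whereas genotype was not used for the choice. Just inside the minimum were Gm12390 and Gm22485, with 100 counts each, and just outside it were Arxes2 and Cbx3-ps6, with 99 counts each.

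The study compared Tdrd6+/- with Tdrd6-/- mice, with 2 samples per genotype. The mice were 20 days old, and at least 4 were pooled for each sample. Cells of the testis were selected on magnetic beads by human CD4 on their surface, which both genotypes express from the endogenous Tdrd6 promoter, so the control also lacks 1 intact copy of the gene. TDRD6 is a tudor domain protein of germ cell granules, and the study asked about splicing in its absence. The sequenced RNA was total RNA treated with DNase I and depleted of ribosomal RNA, including the mitochondrial kind, so transcripts without a poly(A) tail were kept.

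Most mouse genes are interrupted by introns that the spliceosome removes from the transcript. Genes without introns belong to a few families. Replication-dependent histone genes make transcripts that end in a conserved hairpin instead of a poly(A) tail. Retrogenes arose when the spliced transcript of a parent gene was copied back into the genome, and many with an X-linked parent are active in meiosis, when the X chromosome is silenced. Small structured RNAs, the genes of the mitochondrial genome and processed pseudogenes also lack introns. In germ cells a further set of intronless genes is active as spermatids form, among them genes for the cytoskeleton and the perinuclear theca of the sperm head.

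Junction counts were used to check that these genes are intronless. Of the 1024 genes, 869 had 1 exon segment and no annotated junction, 107 had several segments but no junction, and 48 had an annotated junction. Unannotated junctions were counted in 37 genes. Counts on annotated junctions amounted to 2.95% of the gene counts of the 48 genes, and counts on unannotated junctions to 2.50% of those of the 37 genes. In the GENCODE M21 annotation, 892 genes had 1 exon, 63 had several exons and 69 were not found. These pooled shares are weighted by abundant members such as Atxn7l3b, with 7 annotated junction counts beside 173553 gene counts. In some genes the label went against the counts. Rpl9, a protein of the large ribosomal subunit, had a junction for 75.8 to 84.6% of its counts per sample, and Bola2, an iron-sulphur cluster protein, for 59.9 to 70.2%. Morc2b, a meiotic member of the MORC family of ATPases, had 3463 junction counts, 3.56 to 4.41% of its counts. Unannotated junction counts neared or passed the gene counts in some members. They were 502 against 436 in ENSMUSG00000049742, 347 against 381 in Chchd2-ps and 295 against 260 in Gm25386. In 4931417E11Rik they were 5.50 to 6.82% of its counts per sample. Among the genes that differed between genotypes by the test used below, 3 had an unannotated junction, with Gm25386 among them, and 0 an annotated one.

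By annotated class, 329 members encoded proteins, 456 were pseudogenes, 95 were structured RNAs, 73 were long noncoding RNAs and 2 were mitochondrial rRNAs. Total gene counts were 26454326 to 31388750 per sample, of which intronless genes held 1208639 to 1733717. Replicates differed by more than sampling noise. Tdrd6 itself had 1269 and 1412 CPM (gene counts scaled to library size with TMM factors) in Tdrd6+/- and 11.4 and 12.5 CPM in Tdrd6-/- (log2 fold change -6.81), so the labels fit the samples. Spermatocyte markers summed to 5347 to 5397 CPM in Tdrd6+/- and 3895 to 4053 in Tdrd6-/-. Tdrd6 itself is among them, so these sums do not compare the content of spermatocytes. Of the other markers, Sycp1 was called higher (log2 fold change 0.60) and Piwil1 lower (-0.44), and the most abundant, Hspa2, had 0.08. Round spermatid markers summed to 9.20 to 13.1 CPM and 19.7 to 21.7 CPM, with Acrv1 and Spaca1 called higher in Tdrd6-/- and the defining markers Prm1, Prm2, Tnp1 and Tnp2 at 4 to 22 counts over the 4 samples. Sertoli cell markers summed to 44.3 to 49.1 CPM and 53.9 to 54.8 CPM, spermatogonial markers to 12.4 to 13.7 CPM and 16.2 to 17.3 CPM, Leydig cell markers to 7.11 to 9.20 CPM and 7.50 to 9.08 CPM, macrophage markers to 2.94 to 3.84 CPM and 2.62 to 5.25 CPM, and red blood cell markers to 0.467 to 0.535 CPM and 0.158 to 0.219 CPM, in that order of genotype.

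Per kb of exon, the highest levels belonged to structured RNAs. Rn7sk, the RNA that holds the elongation factor P-TEFb inactive, had 37290.5 ± 5977 CPM per kb (SD, n = 4). Rpph1, the RNA of ribonuclease P, followed with 8747 ± 2158 CPM per kb and Rmrp, the RNA of ribonuclease MRP, with 3271 ± 796 CPM per kb. These 3 lay apart by more than their spread. The Cajal body RNA Scarna10 had 905 ± 166 CPM per kb, and the small RNA gene Gm23935 had 693 ± 333 CPM per kb.

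Among protein-coding genes, the testis histone H2B gene Hist1h2ba was highest, with 2815 ± 644 CPM per kb (SD, n = 4), followed by the mitochondrial cytochrome oxidase subunit mt-Co1 with 1149 ± 89.1 CPM per kb. The testis linker histone Hist1h1t had 772 ± 78.5 CPM per kb and the testis heat shock protein Hspb9 had 493 ± 85.5 CPM per kb. The large mitochondrial rRNA mt-Rnr2, a target of the depletion, had 739 ± 357 CPM per kb and did not differ beyond this spread from its neighbours in the order, Hist1h1t and Gm23935. Of these 10 highest genes, mt-Rnr2 was the only one called between genotypes. Hist1h2ba had 1101 and 798 CPM in Tdrd6+/- and 1026 and 1398 CPM in Tdrd6-/-, so its groups overlapped (log2 fold change 0.35, standard error 0.16, adjusted p = 0.314, edgeR). It was called without the first Tdrd6+/- sample (adjusted p = 0.0469), without the first Tdrd6-/- sample (0.0876) and with the replicate block (0.0995).

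Intronless genes took 4.57 and 4.69% of all gene counts in Tdrd6+/- and 4.71 and 5.52% in Tdrd6-/-. The groups did not overlap, and the difference of 0.484 percentage points reached the smallest p that 2 against 2 samples allow (exact permutation test, two-sided, p = 0.33). The second Tdrd6-/- sample stood apart from the other 3. Without it the difference was 0.076 percentage points. Rn7sk alone took 1.11 to 1.15% of counts in the other samples and 1.55% in that one. Structured RNAs other than Rn7sk took 0.385 to 0.433% and 0.624% in the same order. That sample also had the fewest intron counts per gene count, 0.281, against 0.388 to 0.489 in the others, and the part of this in the shares was not tested. Protein-coding intronless genes outside the mitochondria took 2.03 and 2.21% in Tdrd6+/- and 2.28 and 2.36% in Tdrd6-/-.

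Replicates of intronless genes lay further apart than those of genes with introns. The median absolute log2 ratio between replicates was 0.239 in Tdrd6+/- and 0.224 in Tdrd6-/-, against 0.194 and 0.151 for genes with introns. At matched counts this depended on the class. Over both genotypes, genes with a mean count of 100 to 1000 had a median of 0.210 without introns and 0.188 with introns, and genes of 1000 to 10000 counts had 0.180 and 0.131. Protein-coding members of 100 to 1000 counts had 0.184, and in Tdrd6-/- alone 0.132 against 0.167 for genes with introns, which is the other direction. Over both genotypes, structured RNAs of 100 to 1000 counts had 0.228 and pseudogenes 0.235. Without matching the counts, structured RNAs had 0.282, pseudogenes 0.243 and protein-coding members 0.202. Of 341 members with at least 1000 counts, 10 differed by more than 1 on the log2 scale between replicates of a genotype. BC002163, a pseudogene in an intron of Zbtb20, had 0.993 and 9.01 CPM in the Tdrd6+/- samples, and the histone pseudogene Hist1h2al had 11.8 and 1.44 CPM in the Tdrd6-/- samples. These are descriptions, as genes of the same libraries are not replicates.

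To ask which intronless genes depended on genotype, gene counts of all 16555 testable genes were fitted together with edgeR's quasi-likelihood test, and genes with a Benjamini-Hochberg adjusted p under 0.1 were called. Of the 1024 intronless genes, 65 were called (6.35%), where 4.80% of all tested genes were. Calls were 33 higher in Tdrd6-/- (3.22%) and 32 lower (3.13%). Over all tested genes 1.02% were higher and 3.78% were lower, so the share of higher calls was above the background and the share of lower calls was near it. With libraries scaled to their totals, which gave all genes a median log2 fold change of 0.09 instead of 0.01, the split was 39 higher and 25 lower. The genotypes did not overlap in 64 of the 65, but calling by p-value favours such genes. Over all tested genes, called or not, 20.1% had both Tdrd6-/- samples above both Tdrd6+/- samples and 23.4% had both below. These shares therefore do not serve as a background for the 64. The median log2 fold change was 0.06 over intronless genes and 0.01 over all genes. Since the 2 samples of a genotype are pools and no label says that they come from separate experiments, p-values measure the spread between pools.

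**Figure D1:**
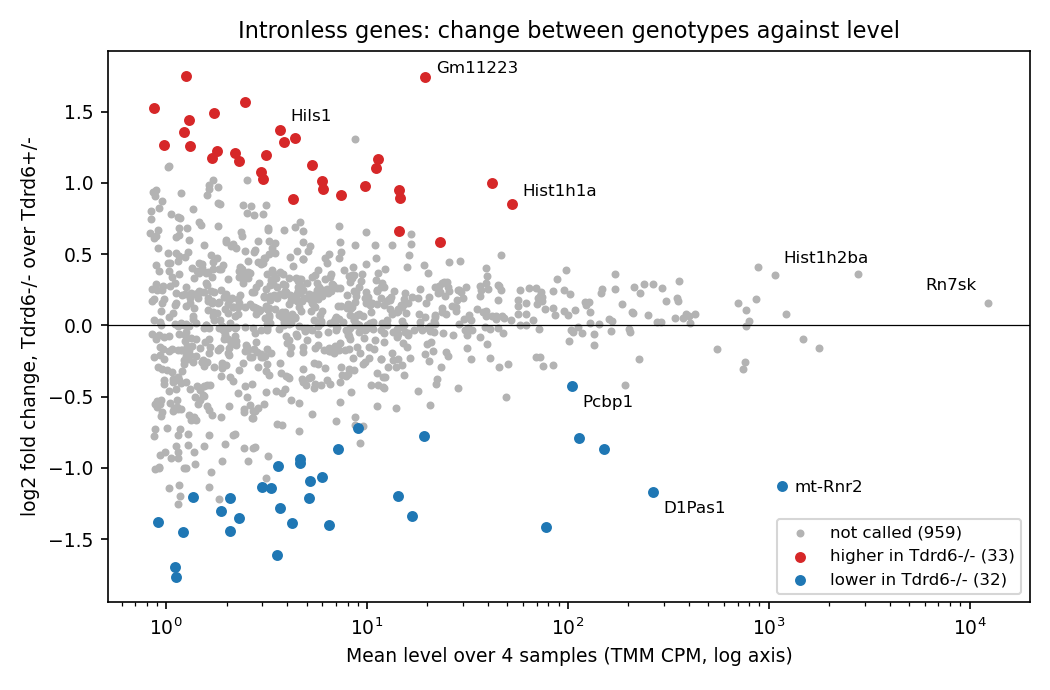
Log2 fold change of Tdrd6-/- against Tdrd6+/- on the y axis and mean level in CPM on a log x axis for the 1024 intronless genes, with the genes called by edgeR coloured by direction. The 33 higher and 32 lower genes lie mostly below 100 CPM, and mt-Rnr2 and D1Pas1 had the highest levels among the genes that fell.

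Protein-coding genes held 30 of the 65 calls, 21 higher and 9 lower, of 329 members (9.12%). Pseudogenes held 18 calls among 456 members (3.95%), 8 higher and 10 lower. Structured RNAs held 4 calls among 95, and long noncoding RNAs held 6 among 73. Of 45 members on the X chromosome, 3 were called (6.67%), where 5.86% of autosomal members and 4.80% of all tested genes were. All 3 were higher, but Zcchc13, Gm15229 and Ppp1r2-ps9 had only 155, 106 and 205 counts over the 4 samples. Each lost its call when some single samples were left out. Genes with at least 50 counts in each genotype numbered 954, of which 26 rose and 28 fell. Leaving out the first Tdrd6+/- sample left 36 calls, of which 19 were among the 65, and leaving out the second Tdrd6-/- sample also left 36, of which 32 were among the 65. Without the second Tdrd6+/- sample 89 genes were called, and without the first Tdrd6-/- sample 101.

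Genes that rose in Tdrd6-/- are given first by their adjusted p, and then by the lists. Hils1, a linker histone of spermatids on chromosome 11 (mm10, 94967593 to 94968456, plus strand), had 1.72 and 2.37 CPM in Tdrd6+/- and 5.28 and 5.34 CPM in Tdrd6-/-. Its 2 highest samples were the Tdrd6-/- ones, without overlap (log2 fold change 1.37, standard error 0.28, edgeR adjusted p = 0.0057). Kif2b, a kinesin that depolymerizes microtubules, lies on chromosome 11 (91575315 to 91577558, minus strand) and had 5.27 and 8.69 CPM against 17.6 and 13.8 CPM (log2 fold change 1.17, standard error 0.24, adjusted p = 0.00597). Fscb, a protein of the fibrous sheath of the sperm tail, had 0.726 and 1.76 CPM against 4.02 and 3.41 CPM (log2 fold change 1.57, adjusted p = 0.0129). In each of these genes the groups were separated in CPM by more than the gap between replicates. On the log2 scale this held for Hils1 but not for Kif2b and Fscb.

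The uncharacterized gene 4921501E09Rik had 5.31 and 8.80 CPM against 17.0 and 13.3 CPM (log2 fold change 1.10), and Ccer1, a coiled-coil protein gene, had 7.71 and 12.1 CPM against 19.3 and 19.0 CPM (log2 fold change 0.95). Gm4868 had 1.76 and 2.69 CPM against 5.88 and 5.03 CPM (log2 fold change 1.29). In each of these 3 genes, and in Fscb and Kif2b, the first Tdrd6+/- sample was the lowest. Without that sample the edgeR adjusted p was 0.146 for Fscb, 0.101 for Ccer1 and 0.105 for Gm4868. Hils1, Kif2b and 4921501E09Rik kept their call under each of the 13 alternatives run. The X-linked zinc finger gene Zcchc13 had 0.687 and 0.467 CPM against 1.52 and 2.37 CPM (log2 fold change 1.75, adjusted p = 0.0143), and it lost its call without the second Tdrd6+/- sample (adjusted p = 0.116) or the second Tdrd6-/- sample (0.212).

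The sperm head cytoskeleton list had 4 members, of which 2 rose. Actl7a, an actin-like protein of the acrosome region, had 3.13 and 5.03 CPM against 8.32 and 7.56 CPM (log2 fold change 0.96, edgeR adjusted p = 0.0402). Capza3, the germ cell form of an actin capping subunit, had 0.726 and 1.40 CPM against 2.72 and 2.28 CPM (log2 fold change 1.22, adjusted p = 0.0633). Both lost their call without the first Tdrd6+/- sample, where the log2 fold change was 0.67 for Actl7a and 0.85 for Capza3. Capza3, with 217 counts over the 4 samples, also lost it without the first Tdrd6-/- sample (log2 fold change 1.09). With all samples DESeq2 gave Capza3 an adjusted p of 0.139. Actl7b, the neighbour of Actl7a on chromosome 4 and far more abundant, had 127 and 186 CPM against 182 and 192 CPM, and its groups overlapped (log2 fold change 0.26, adjusted p = 0.495). Cypt4 and Cypt12, of the perinuclear theca family, were also called, with log2 fold changes of 1.36 and 1.27. Each lost its call when any one of the samples was left out (adjusted p 0.102 to 0.248 for Cypt4 and 0.148 to 0.399 for Cypt12), and Cypt12 also with median-of-ratios scaling (0.11). The testis-specific kinase genes Tssk1 and Tssk2 had log2 fold changes of 0.20 and 0.67 and were not called.

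Further called genes, picked after their values were seen, had levels under 20 CPM. Spz1, a transcription factor of the testis, had 8.10 and 12.3 CPM against 18.4 and 19.6 CPM (log2 fold change 0.89), with an edgeR adjusted p of 0.136 when the first Tdrd6+/- sample was left out. Gtsf1l had 2.29 and 4.34 CPM against 6.86 and 7.69 CPM (log2 fold change 1.13), and Ddi1 had 4.66 and 8.40 CPM against 13.7 and 12.2 CPM (log2 fold change 0.98). Without that sample their adjusted p was 0.227 and 0.222. Round spermatid markers moved the same way, from 9.20 to 13.1 CPM up to 19.7 to 21.7 CPM in sum, with the protamine and transition protein genes near 0 in all samples. In cells sorted this way the paper counted diplotene cells, secondary spermatocytes and round spermatids, and reported no significant difference between genotypes. The part of spermatids among the sorted cells in these values was not tested here. In bulk RNA a change in cell number and a change in RNA per cell cannot be told apart.

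**Figure D2:**
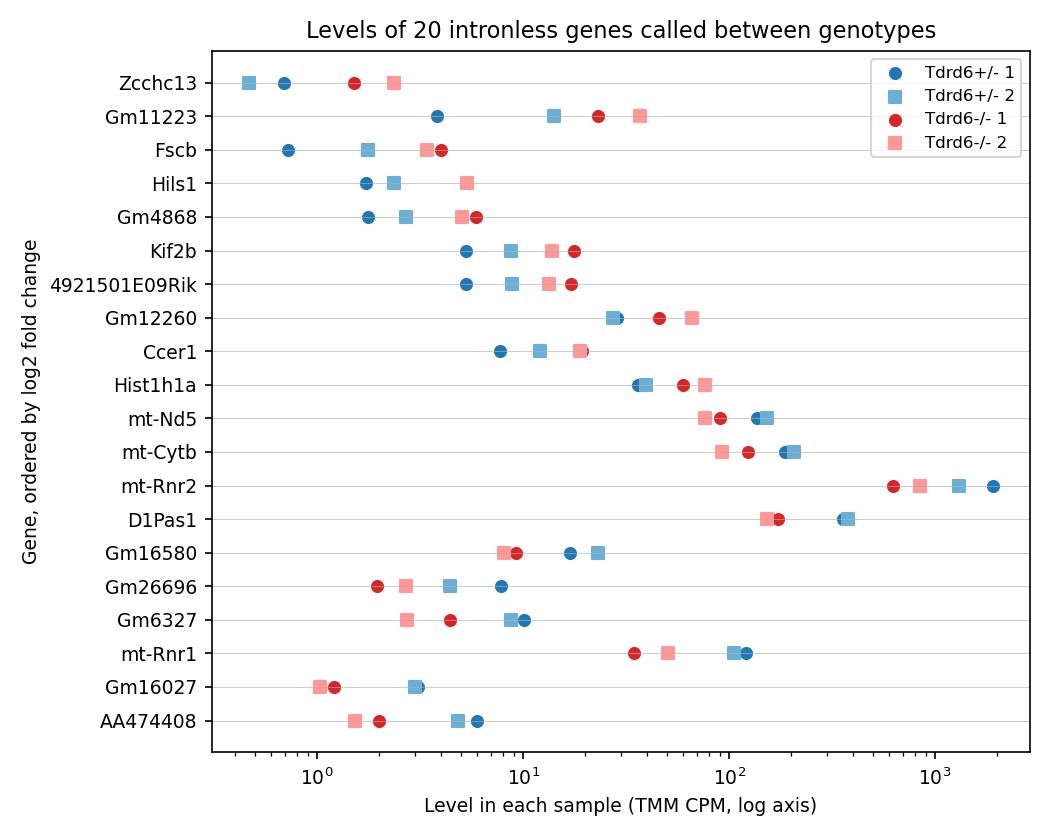
CPM on a log axis of the named genes called higher and lower in Tdrd6-/-, with 1 point per sample and 2 samples per genotype. In no gene do the points of the genotypes overlap, as the naming rule required. D1Pas1 lay between 152 and 376 CPM and Zcchc13 between 0.467 and 2.37 CPM.

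Gm12260 and Gm11223, which encode no known protein, also rose. Gm12260, which lies in an intron of Trim17 on the same strand, had 28.4 and 27.3 CPM against 45.6 and 65.9 CPM (log2 fold change 1.00, standard error 0.17, edgeR adjusted p = 0.00118). Gm11223 had 3.82 and 14.1 CPM against 23.1 and 37.1 CPM (log2 fold change 1.74, adjusted p = 0.00421). Its Tdrd6+/- samples differed 1.76 on the log2 scale, and DESeq2 gave an adjusted p of 0.371.

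Genes named for the replication-dependent histone clusters had 36 members. They were listed by symbol and include the testis histone genes Hist1h1t, Hist1h2ba and Hist1h2aa and the pseudogenes Hist1h2al and Hist3h2bb-ps. Of these 34 had a log2 fold change above 0 (94.4%), where 51.7% of all tested genes did, and the median was 0.44 against 0.01 over all genes. The count of 34 held under each scaling tried. In 23 of the 36 both Tdrd6-/- samples lay above both Tdrd6+/- samples, where 20.1% of all tested genes did. Only the linker histone gene Hist1h1a was called. It lies on chromosome 13 (23763666 to 23764406, plus strand) and had 35.9 and 39.5 CPM against 59.7 and 76.4 CPM (log2 fold change 0.85, standard error 0.15, edgeR adjusted p = 0.00215). The second Tdrd6-/- sample was the highest in many of these genes. Without it the list's median was 0.22, 32 members stayed above 0, and Hist1h1a had an adjusted p of 0.116. Without the first Tdrd6-/- sample the median was 0.68, with 12 members called higher and 1 lower.

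The hairpin at the end of these transcripts was searched for in the annotated transcripts of 43 members with histone symbols, the 36 above and further variant or testis histone genes such as H2afx, H1f0 and Hils1. The pattern was a stem of 6 base pairs that begins with GG, around a loop of 4 bases with at least 2 T, anywhere in the transcript, and it was found in 28. Below are 4 of these with their flanks, 5′ to 3′, with the stem in capitals. They are shown because they are the shared sequence feature of the family and vary little between genes. In Hist1h4h the stem began 62 bases before the annotated end and in Hist1h4f 49 bases, whereas in Hist1h1t it began 201 and in H2afx 838 bases before it.
Hist1h4h: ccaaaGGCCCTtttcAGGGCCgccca
Hist1h4f: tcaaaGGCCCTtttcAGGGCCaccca
Hist1h1t: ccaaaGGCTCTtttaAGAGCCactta
H2afx: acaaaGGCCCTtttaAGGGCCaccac

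Most genes with and most without a hairpin found were above 0. Of the 28 with the pattern, 26 had a log2 fold change above 0, with a median of 0.43. H2afj, counted among them, had the stem GGCCAC 1203 bases before the annotated end. Of the 15 in which none was found, 13 were above 0, with a median of 0.35. The called genes Hist1h1a and Hils1 were among these 15. The search depends on where the annotated transcripts end, so it does not show that these 15 lack the hairpin. The testis and variant histone list had 7 members, 3 of them also in the cluster list, with a median log2 fold change of 0.23 and Hils1 as its called gene. Hist1h4h, a histone H4 gene, had 41.9 and 34.9 CPM against 45.0 and 63.1 CPM (log2 fold change 0.49, edgeR adjusted p = 0.132). Hist1h4f, another H4 gene at a low level, had 1.45 and 1.87 CPM against 2.34 and 4.41 CPM (log2 fold change 1.02, adjusted p = 0.109). In both, the lower Tdrd6-/- sample lay close to the Tdrd6+/- samples. Hist1h1t had 699 and 631 CPM against 684 and 802 CPM (log2 fold change 0.16), and H2afx, the variant that is phosphorylated at DNA breaks, had 218 and 201 CPM against 219 and 272 CPM (log2 fold change 0.23). Histone genes lie in clusters of near copies, and reads shared between copies make single values uncertain.

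**Figure D3:**
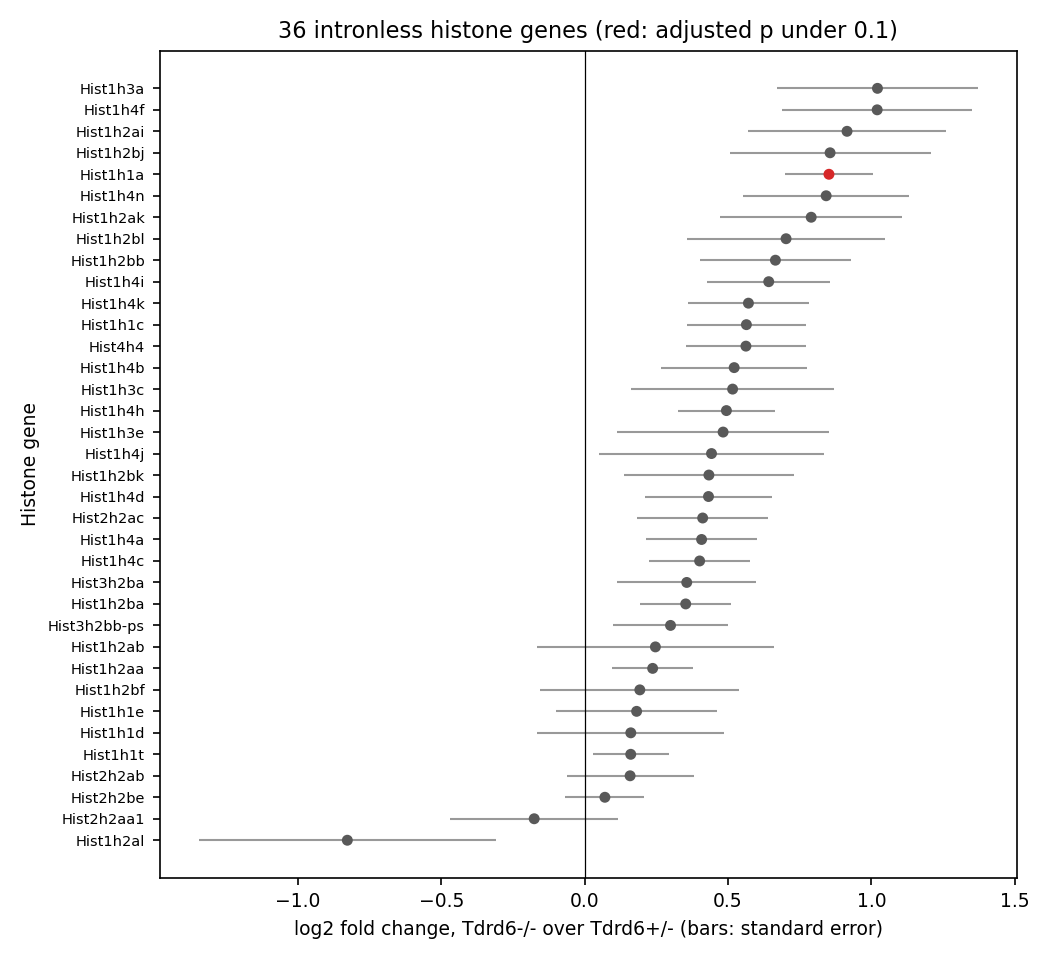
Log2 fold change of Tdrd6-/- against Tdrd6+/- (x axis) for the 36 intronless genes of the histone clusters (y axis, ordered by change), with bars for the standard error of the edgeR fit. Points of 34 genes lie to the right of 0 and those of Hist2h2aa1 and Hist1h2al to the left, and Hist1h1a, in red, is the gene called.

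D1Pas1 was the abundant gene that fell most clearly. It encodes a DEAD-box RNA helicase of the germ line, is a retrocopy of the X-linked Ddx3x, and lies on chromosome 1 (186967416 to 186970627, plus strand). It had 357 and 376 CPM in Tdrd6+/- and 173 and 152 CPM in Tdrd6-/-. The groups were far apart relative to the replicates, and the mean was 2.25-fold lower in Tdrd6-/- (log2 fold change -1.17, standard error 0.13, edgeR adjusted p = 2.3e-05). The call held under each of the 13 alternatives. The parent Ddx3x had 18.7 and 14.1 CPM against 19.9 and 20.7 CPM (log2 fold change 0.31, adjusted p = 0.516).

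The reading frames of D1Pas1 and Ddx3x were the same at 87.4% of 1980 aligned bases, with a longest identical run of 44 bases. The stretches below, from bases 260 to 379 of the D1Pas1 frame and 263 to 382 of the Ddx3x frame, open the longest gap-free part of the alignment and are shown because reads of the copies can be told apart by their differences. The 25 bases that differ are in capitals.
D1Pas1: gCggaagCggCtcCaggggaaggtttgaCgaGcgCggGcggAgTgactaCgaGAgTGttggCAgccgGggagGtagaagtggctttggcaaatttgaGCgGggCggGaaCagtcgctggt
Ddx3x: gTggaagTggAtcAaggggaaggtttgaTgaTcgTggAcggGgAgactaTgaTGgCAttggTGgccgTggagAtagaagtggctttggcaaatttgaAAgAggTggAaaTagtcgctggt

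Genes of the mitochondrial genome lie on 1 transcript per strand that is cut into its parts without splicing. Of the 6 counted as intronless, 4 fell in Tdrd6-/-, and the median log2 fold change was -0.83. The small rRNA mt-Rnr1 had 121 and 105 CPM against 34.7 and 50.3 CPM (log2 fold change -1.41, standard error 0.16, edgeR adjusted p = 2.39e-05). The large rRNA mt-Rnr2 had 1900.2 and 1306 CPM against 625 and 845 CPM (log2 fold change -1.13, standard error 0.17, adjusted p = 0.000268). Both values are what the ribosomal RNA depletion left of these transcripts, and neither overlapped between genotypes.

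The mRNA mt-Cytb, cytochrome b of complex III, had 186 and 206 CPM against 123 and 92.0 CPM (log2 fold change -0.87, standard error 0.14, edgeR adjusted p = 0.000973). The complex I subunit mt-Nd5 had 136 and 153 CPM against 90.7 and 76.5 CPM (log2 fold change -0.79, standard error 0.14, adjusted p = 0.0015). All 4 calls held under each of the 13 alternatives in which the genes were tested. The 2 other members were not called. The abundant mt-Co1 had 1856 and 1886 CPM against 1580 and 1776 CPM (log2 fold change -0.16, adjusted p = 0.673), and mt-Nd6, which lies on the other strand, had 11.8 and 19.6 CPM against 15.02 and 13.9 CPM (log2 fold change -0.12). The members together took 0.417 and 0.35% of gene counts in Tdrd6+/- and 0.256 and 0.291% in Tdrd6-/-.

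The other genes that fell by the naming rule were Gm16580, AA474408, Gm6327, Gm26696 and Gm16027, which encode no known protein. AA474408 had 5.995 and 4.81 CPM against 1.99 and 1.53 CPM (log2 fold change -1.61, edgeR adjusted p = 0.00148), and Gm6327 had 10.1 and 8.72 CPM against 4.43 and 2.72 CPM (log2 fold change -1.40). Both kept their call under the 13 alternatives. Each lies in a same-strand intron, AA474408 in 1600010M07Rik and Gm6327 in 4930414F18Rik. Intron counts of these hosts were not available, so the genes could not be set beside them. Gm26696 had 7.79 and 4.42 CPM against 1.96 and 2.69 CPM (log2 fold change -1.39), and its adjusted p was 0.212 without the first Tdrd6+/- sample. Among coding genes, the poly(C)-binding protein gene Pcbp1 fell from 119 and 122 CPM to 91.0 and 88.0 CPM (log2 fold change -0.42, adjusted p = 0.0854), and Rraga, a GTPase that passes amino acid signals to mTORC1, fell from 6.68 and 5.53 CPM to 3.16 and 3.09 CPM (log2 fold change -0.96). Pcbp1 lost its call under 7 alternatives, 3 of them with all samples, and its adjusted p was 0.198 with libraries scaled to their totals. Rraga had an adjusted p of 0.221 without the first Tdrd6+/- sample and 0.222 without the second Tdrd6-/- sample. These 2 and the genes of the next list were taken from the called genes after their values were seen.

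Receptor genes had 9 members, with a median log2 fold change of -0.85 against 0.01 over all genes, and 1 member lay above 0. Most were near the count minimum, with a median of 131 counts over the 4 samples. With genes of a mean count of at least 50, 2 members remained, with a median of -0.24, 1 above 0 and 0 called. In 7 of the 9 both Tdrd6-/- samples lay below both Tdrd6+/- samples, where 23.4% of all tested genes did. The olfactory receptor genes Olfr161 and Olfr1277 fell, from 1.95 and 1.51 CPM to 0.727 and 0.281 CPM and from 1.38 and 1.26 CPM to 0.569 and 0.437 CPM (log2 fold changes -1.77 and -1.38). Both stayed under 2 CPM in every sample. In GENCODE M21 part of each gene lies outside its exons, so that annotation does not show them as a single exon. Olfr161 reaches from 3591042 to 3599323 with 7133 exon bases, and Olfr1277 from 111264946 to 111274106 with 5944. The edgeR adjusted p of Olfr161 was 0.185 without the first Tdrd6+/- sample and 0.318 without the second Tdrd6-/- sample, and Olfr1277 lost its call without any one of the samples (adjusted p 0.104 to 0.473) and with libraries scaled to their totals (0.12). The member above 0 was Gpr62, an orphan receptor with 5549 counts and a log2 fold change of 0.25.

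Many intronless genes lie inside an intron of another gene, where a fragment can belong to either gene. Of the members, 180 lay in an intron of a gene on the same strand, and 17 of them were called (9.44%, against 4.80% of all tested genes), 4 higher and 13 lower, with a median log2 fold change of -0.09. Hosts with intron counts of their own were available for 142. Of the 12 called genes among these, all 10 that fell had lower mean intron counts in their host, and 1 of the 2 that rose had higher ones. Intron counts were lower in Tdrd6-/- in 117 of the 142 hosts, with a median of -0.33 on the log2 scale, so hosts of genes that were not called were also mostly lower. Over the whole libraries, intron counts per gene count were 0.489 and 0.388 in Tdrd6+/- and 0.393 and 0.281 in Tdrd6-/- (exact permutation test, p = 0.67), and the part of this in the nested genes was not tested. Over the 142 pairs, the change of the gene and of the host's introns correlated with a Pearson r of 0.68 and a Spearman rho of 0.68. This is a description, as both values come from the same 4 libraries and can hold the same fragments.

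Gm16580 lies in an intron of Luc7l, a U1 snRNP-associated splicing factor gene, on chromosome 17 (26269337 to 26270384, plus strand). It had 16.8 and 23.0 CPM against 9.27 and 8.09 CPM (log2 fold change -1.20, standard error 0.21, edgeR adjusted p = 0.00121). The introns of Luc7l, scaled like the gene counts, had 46.4 and 46.4 CPM against 30.5 and 23.6 CPM, while its gene level did not differ (log2 fold change -0.02, adjusted p = 0.974). Gm16027, in an intron of the ectonucleotidase gene Entpd1, had 3.09 and 2.98 CPM against 1.20 and 1.03 CPM (log2 fold change -1.44, adjusted p = 0.0121). The introns of Entpd1 had 134 and 100.1 CPM against 71.0 and 52.7 CPM. In both pairs gene and host introns were lower in both Tdrd6-/- samples.

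The called genes that went the other way were few. Gm12191, a pseudogene in an intron of the deadenylase gene Cnot6, rose from 11.7 and 10.7 CPM to 17.7 and 17.8 CPM (log2 fold change 0.66), while Cnot6 itself fell (log2 fold change -0.98). Its call was lost without the second Tdrd6+/- sample or either Tdrd6-/- sample (adjusted p 0.129 to 0.334). The coding gene 4933405O20Rik rose (log2 fold change 1.21, lost without the first Tdrd6+/- sample, adjusted p = 0.28, or the first Tdrd6-/- sample, 0.114), and the introns of its host Nell1 had 2.75 and 3.05 CPM against 5.12 and 4.00 CPM. Of the 12 hosts of called genes, only Cnot6 and Ttc28 were called themselves. Gm25939 was the called gene whose groups overlapped, with 38.1 and 9.98 CPM against 7.21 and 11.7 CPM (log2 fold change -1.34), and its log2 fold change was -0.06 without the first Tdrd6+/- sample. Leaving out all genes in a same-strand intron, 48 calls remained, 29 higher and 19 lower.

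**Figure D4:**
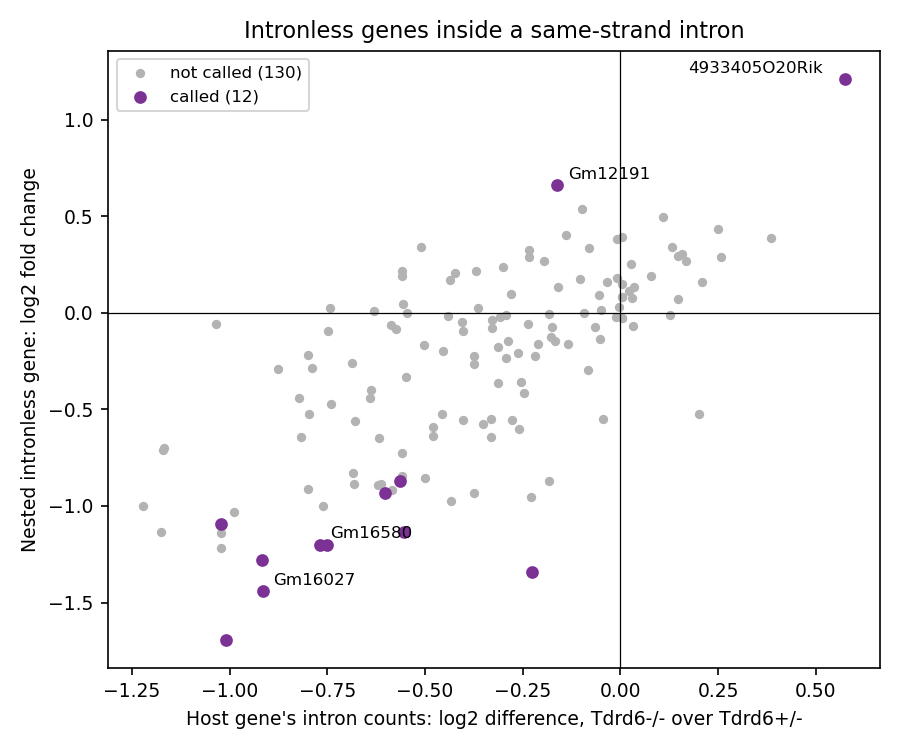
Log2 fold change of an intronless gene (y axis) against the log2 difference of the intron counts of its host gene (x axis), for the 142 genes in a same-strand intron with host intron counts. Most hosts lie left of 0, and the 10 called genes that fell all have hosts with lower intron counts in Tdrd6-/-.

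Retrogenes were compared with their parents per kb of exon in each sample. Of 23 pairs on the list, 13 retrogenes were members and 9 had a parent that was counted alone. In 4 pairs the retrogene was higher in all samples. Pgk2, the meiotic phosphoglycerate kinase, exceeded the X-linked Pgk1 356 ± 28.3 times (SD, n = 4), and Pdha2, the meiotic pyruvate dehydrogenase subunit, exceeded Pdha1 376 ± 81.9 times. Pgk1 had 19 to 42 counts per sample and Pdha1 30 to 50, so the ratios to them rest on few parent counts. Rbmxl2, a nuclear splicing regulator of meiosis, exceeded Rbmx 27.2 ± 6.78 times. These 3 retrogenes were not called between genotypes with all samples, and Pgk2 was called higher without the second Tdrd6+/- sample (log2 fold change 0.59, edgeR adjusted p = 0.028). D1Pas1 exceeded Ddx3x 37.6 ± 8.89 times in Tdrd6+/- and 13.2 ± 1.59 times in Tdrd6-/- (SD, n = 2, exact permutation test, p = 0.33, adjusted over the 9 pairs 0.59), the smallest p this design allows.

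In 3 pairs the retrogene was lower than its parent in all samples. Capza3 had 0.121 of the level of Capza2, and Capns2 had 0.054 of that of Capns1. Uchl4 had 0.458 ± 0.016 of the level of Uchl3, but their frames were the same at 97.4% of bases with a run of 137, so reads of the copies cannot be told apart with certainty. The identity was 79.3% for Pgk2 and Pgk1.

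The poly(A)-binding protein retrogenes were below their parent per kb of exon in Tdrd6+/- and above it in Tdrd6-/-. Pabpc2 had 0.790 ± 0.046 of the level of Pabpc1 in Tdrd6+/- and 1.39 ± 0.0085 in Tdrd6-/-, and Pabpc6 had 0.908 ± 0.017 and 2.08 ± 0.015 (SD, n = 2, exact permutation test, p = 0.33). The parent Pabpc1, which has introns, was called lower. It had 2340.2 and 2944 CPM against 1277 and 1162 CPM (log2 fold change -1.12, standard error 0.14, edgeR adjusted p = 4.56e-05). Pabpc2 had 701 and 957 CPM against 698 and 640.5 CPM (log2 fold change -0.31, adjusted p = 0.337), and Pabpc6 had 1061 and 1299 CPM against 1299 and 1195 CPM (log2 fold change 0.08, adjusted p = 0.874). In CPM, without division by exon length, Pabpc2 stayed below Pabpc1 in all 4 samples. Their frames were the same as that of Pabpc1 at 83.2 and 83.4% of bases. Without the first Tdrd6+/- sample Pabpc2 was called (adjusted p = 0.0433).

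**Figure D5:**
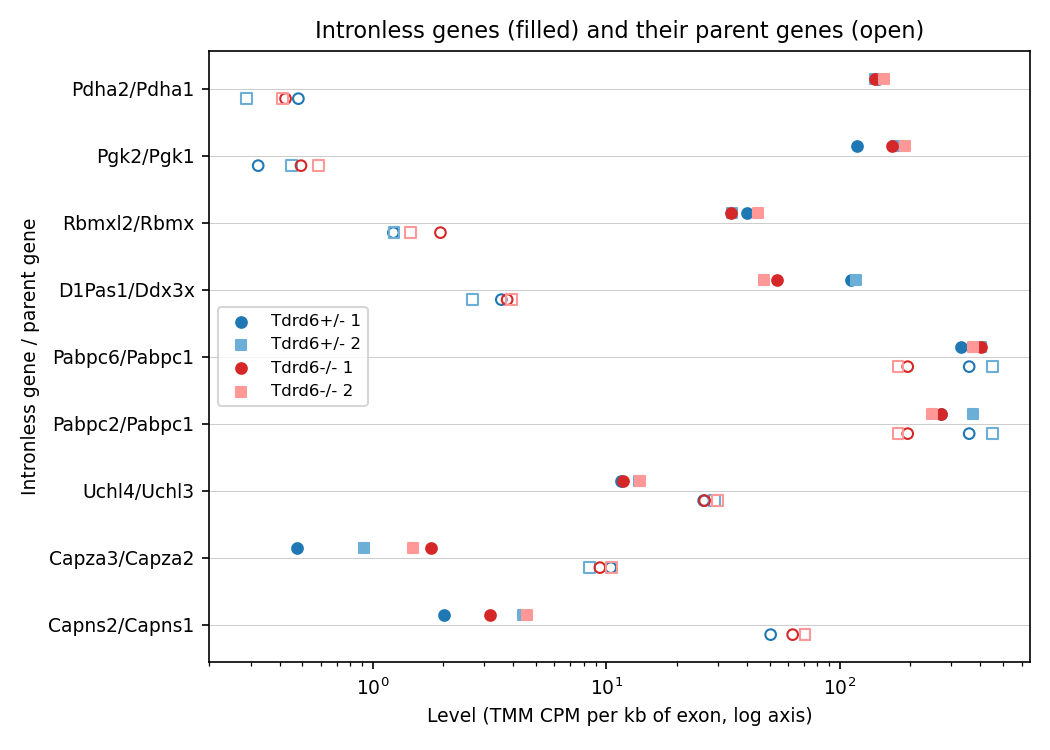
Levels of 9 intronless retrogenes (filled) and their parent genes (open) in CPM per kb of exon on a log x axis, with 1 point per sample and 2 samples per genotype. Pgk2 and Pdha2 lie between 303 and 490.4 times above their parents over the samples, D1Pas1 is lower in both Tdrd6-/- samples, and at Pabpc2 and Pabpc6 it is the open points of Pabpc1 that are lower in Tdrd6-/-.

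Other retrogenes and abundant coding members moved little. The retrogene list had a median log2 fold change of 0.08, with Capza3 called higher and D1Pas1 called lower. Atxn7l3b had 1555 and 1499.8 CPM against 1434 and 1428 CPM (log2 fold change -0.09), and the glycerol kinase Gk2 had 745 and 874 CPM against 874 and 969 CPM (log2 fold change 0.19). Haspin, the histone H3 kinase encoded inside an intron on the opposite strand, had 683 and 904 CPM against 818 and 803 CPM (log2 fold change 0.03). Among 5 immediate early genes none was called, with Jun at 10.6 and 16.1 CPM against 9.27 and 8.75 CPM (log2 fold change -0.57, edgeR adjusted p = 0.211) and Junb at 0.993 and 0.969 CPM against 1.58 and 1.88 CPM (log2 fold change 0.81, adjusted p = 0.279). The 3 testis ADAM genes, Adam1b, Adam4 and Adam30, were not called, and neither were the single members of the heat shock (Hspb9), ubiquitin (Uchl4), imprinted (Mkrn3) and zinc finger (Zfp830) lists. No protocadherin gene was a member.

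Of the 95 structured RNAs, Scarna13, a Cajal body RNA in an intron of Snhg10, rose from 19.2 and 17.6 CPM to 23.1 and 32.1 CPM (log2 fold change 0.58, edgeR adjusted p = 0.0975), and 3 fell, namely Gm25386, Gm25939 and Mir683-1. Scarna13 lost its call under 5 alternatives, and without the second Tdrd6-/- sample its log2 fold change was 0.33 (adjusted p = 0.939). The precursor gene Mir683-1 had 10.4 and 5.74 CPM against 3.95 and 3.75 CPM, and Mir683-2 had 0.916 and 1.18 CPM against 0.980 and 0.719 CPM (log2 fold change -0.31, adjusted p = 0.816). Their hairpins on chromosome 13 (GRCm38.p6, minus strand, 50544626 to 50544734 and 50600972 to 50601080) are identical over 109 bases in RefSeq, so fragments inside the hairpin cannot be given to either gene, and the difference between them is uncertain. The mature sequence is shown with its seed (bases 2 to 8) in capitals, since both genes share it. Without the first Tdrd6+/- sample Mir683-1 had an adjusted p of 0.484. Total RNA libraries of this kind do not measure the mature miRNA.
mmu-miR-683: cCUGCUGUaagcuguguccuc

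Promoters were compared to describe the letters before the starts of the genes that moved. Of the members, 230 matched a RefSeq promoter (GRCm38.p6) by name, among them 23 of the 65 called. The 250 bases before each start were searched on both strands for CCAAT and TATAAA as well as TGACGT, motifs that do not overlap each other. CCAAT stood in 33.8% of all 32851 windows and in 34.6% of the 237 windows of intronless genes. It stood in 8 of the 17 windows of genes called higher. The start used by RefSeq lay up to 3299 bases from the GENCODE start in these genes, and among the 13 within 60 bases of it 6 held the motif. For genes called lower 6 windows were matched, but 2 lay within 60 bases of the GENCODE start and 122 bases of the Jrkl window are not known, so they were not compared. TGACGT stood in 6.47% of all windows and 9.28% of those of intronless genes, and TATAAA in 12.4% and 8.86%. These counts are small and were not tested.

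Printed with CCAAT or its reverse complement in capitals, to show where the motif lies, are windows of 4 genes that rose. They hold the last 150 bases before the start, 5′ to 3′ on the strand of the gene. They are chr11:91577556-91577705 (minus strand) for Kif2b, chr11:88293893-88294042 (plus strand) for Ccdc182, chr9:24625035-24625184 (plus strand) for Cypt4 and chr3:17948294-17948443 (plus strand) for Cypt12, all in GRCm38.p6. The RefSeq start of each lay within 60 bases of the GENCODE start. Cypt4 and Cypt12 are of the same family, so their windows are not separate examples.
Kif2b: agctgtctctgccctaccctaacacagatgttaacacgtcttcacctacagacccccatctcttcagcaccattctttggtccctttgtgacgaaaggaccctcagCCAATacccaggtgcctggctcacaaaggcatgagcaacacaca
Ccdc182: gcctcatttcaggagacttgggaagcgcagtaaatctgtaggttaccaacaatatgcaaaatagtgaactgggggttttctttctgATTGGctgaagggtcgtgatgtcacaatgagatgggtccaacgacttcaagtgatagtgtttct
Cypt4: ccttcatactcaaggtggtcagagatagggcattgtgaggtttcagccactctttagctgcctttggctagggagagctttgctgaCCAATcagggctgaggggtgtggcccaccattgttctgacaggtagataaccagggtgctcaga
Cypt12: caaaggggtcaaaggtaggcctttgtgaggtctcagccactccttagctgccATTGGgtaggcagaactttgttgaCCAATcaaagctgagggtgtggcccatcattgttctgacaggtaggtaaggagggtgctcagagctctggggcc

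Ccdc182 had 1.18 and 2.62 CPM against 4.33 and 4.44 CPM (log2 fold change 1.20, edgeR adjusted p = 0.0403), and without the first Tdrd6+/- sample its adjusted p was 0.346. Cypt4 had 0.611 and 0.754 CPM against 1.83 and 1.69 CPM, and Cypt12 had 0.496 and 0.646 CPM against 1.55 and 1.22 CPM. In all 3 genes both Tdrd6-/- samples lay above both Tdrd6+/- samples, at levels of a few CPM or less.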

How the data were processed

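RNA of 4 samples (2 Tdrd6+/- and 2 Tdrd6-/-) was analysed, grouped by the genotype in the labels. Paired reads were aligned by the authors to the mm10 genome using GSNAP and assigned to features of Ensembl 75, and raw counts of fragments per gene, exon segment, junction and intron were deposited in 2 files per sample. The submitters' notes name bcl2fastq 1.8.4. The counting program and its strand setting are not given in the sources used here, so genes that overlap on opposite strands are uncertain. Positions, exon lengths and classes came from GENCODE M21.

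Gene counts were fitted in R 4.3.3 by the quasi-likelihood test of edgeR 4.0.16 after TMM scaling and filterByExpr, with Benjamini-Hochberg adjustment over 16555 genes and a false discovery rate of 0.1. DESeq2 1.42.0 was an alternative. Single values were compared by two-sided exact permutation tests. Counts were simulated for this comparison (16555 genes, 200 changed), with the same dispersion between replicates, 0.018, for every gene. Of genes changed by 1 on the log2 scale 77.5% were found, with 7.74% false calls. Of those changed by 2, 99.5% were found, with 11.2% false calls. Real members differed in their replicate spread, so these rates do not carry over to the calls above. Named were up to 10 genes per direction with the smallest adjusted p and no overlap between genotypes, the 10 highest per kb, members of fixed lists and those beside the count minimum. Others were chosen after their values were seen. The members and lists were chosen with earlier results of these data known. Promoter and miRNA sequences are RefSeq's (GRCm38.p6), while reading frames came from the GENCODE transcripts. Parents merged with another gene were not analysed here.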

Additional observations from a re-analysis of the deposited data

How the results depend on the processing

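Of the 65 intronless genes called, 51 were called under every alternative that used all 4 samples and tested them, and 14 under these and each left-out sample. The number called was 36 to 101 when each sample was left out in turn, 89 with a replicate block and 116 with the replicate numbers crossed. Same-numbered samples of the genotypes deviated with a correlation of -0.11 over 12347 genes, so the numbers were not taken as pairs. Protein-coding members held 30 of the calls. Over all members 48 were called at a false discovery rate of 0.05. The difference in the share of counts was 0.076 to 0.893 percentage points when each sample was left out. The median replicate spread, 0.230 on the log2 scale over all members, was 0.202 for protein-coding members, 0.273 at mean counts of 25 to 100, 0.180 at 1000 to 10000 and 0.189 above. The number of retrogenes above their parent in all samples was 4 throughout. With 2 samples per genotype, single values could not pass a threshold of 0.05.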
